A study of Mus musculus with 7 samples.

Results

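FGF receptors and the genes that FGF signalling switches on to restrain itself were described here in sorted precursors of cerebellar granule neurons, a dividing population of the young cerebellum. The set held 10 genes, chosen by name: the receptors Fgfr1, Fgfr2 and Fgfr3, the feedback inhibitors Spry1, Spry2, Spry4, Spred1 and Dusp6, and the ETS transcription factors Etv4 and Etv5. All probe sets that the platform annotation assigns to exactly 1 of these genes were taken, which gave 29 of the 34945 probe sets with a single gene. All samples carried the same genotype, Math1-Cre/Ptc-loxp/Nestin-CFP: the Cre recombinase, made where Math1 (Atoh1) is expressed, deletes Ptch1, whose product holds Hedgehog signalling off, and the CFP reporter marks cells in which regulatory sequence of Nestin is active. Cells were sorted by that reporter, without culture or treatment, into a Nestin-positive fraction (4 arrays, replicates 1, 3, 4 and 5) and a Nestin-negative fraction (3 arrays, replicates 1, 4 and 5). No fraction with intact Ptch1 was included. The sample labels give postnatal day 7 and medulloblastoma as the tissue, whereas the series text gives postnatal day 4. The sources used here do not say whether animals were pooled, so p-values measure the spread between these samples, which may be technical.

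Each value is a MAS5 signal, a probe set brightness on a linear scale from an Affymetrix Mouse Genome 430 2.0 array, and values below are listed in the order of the replicate numbers above. A signal is called dim where it lies below the median of its array, which ranged from 64.4 to 94.5. Precision is limited by how few arrays there are, and a fraction with fewer cells of a type cannot be told apart from one with less RNA per cell. Nes, the gene that drives the sorting reporter, had signals of 478, 829, 722 and 543 in Nestin-positive and 179, 174 and 217 in Nestin-negative cells, which checks the labels and is no finding. All 10 precursor markers, Atoh1 and Barhl1 among them, lay at or above the median on all 7 arrays. So did the 11 tested markers of granule neuron differentiation and the 6 of the oligodendrocyte lineage, so this does not single out precursors.

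Fibroblast growth factors bind receptor tyrosine kinases at the cell surface and, through adaptor proteins, RAS and RAF, activate the kinase ERK. ERK signalling in turn raises transcription of the ETS factors Etv4 and Etv5 and of inhibitors that act on the same pathway: Sprouty and Spred proteins limit activation of RAS and RAF, and Dusp6 is a cytoplasmic phosphatase of ERK. The mRNA levels of these genes are therefore often read together as a record of FGF and ERK activity. In the cerebellum, Fgfr2 and Fgfr3 are known from glia, and FGF signalling is known to oppose the growth response of granule neuron precursors to Hedgehog.

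None of the 10 genes passed the comparison of all 7 arrays, in which limma called 83 of 11089 genes, or 0.748% (0.171% higher and 0.577% lower). Of the 10, 3 had an unadjusted p under 0.05 (Spred1, Etv5 and Spry1), where 14.4% of all genes did. Replicate numbers 1, 4 and 5 occur in both fractions, and same-numbered arrays deviated together. With the number as a block, fitted on the 3 pairs and so without Nestin-positive replicate 3, limma called 3 of the 10, where 10.1% of all genes passed: Spred1 and Etv5 rose (3.60% of all genes were called higher) and Spry1 fell (6.52% were called lower). The median log2 change of the 10 genes was 0.21 without the block, against -0.03 over all genes tested. Nestin-negative replicate 1 was the lowest array for 6 of the 10 genes, where it was the lowest for 22.6% of all genes, and without it the median of the 10 was 0.01, against -0.05 over all genes. Groups did not overlap for 4 of the 10 genes (Fgfr3, Spry1, Spred1 and Etv5), where 15.0% of all genes had such groups.

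**Figure D1:**
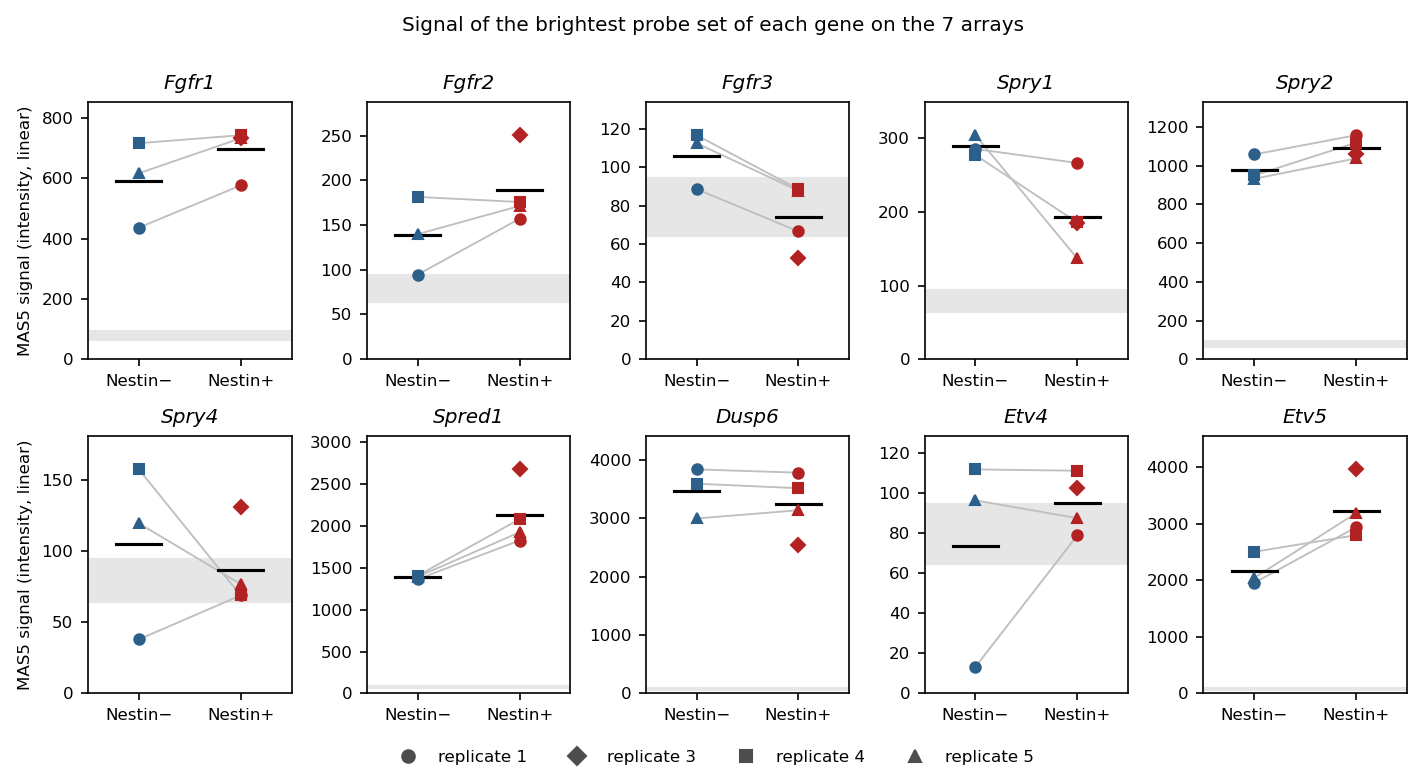
MAS5 signal (linear intensity, axes from 0) of the brightest probe set of each of the 10 genes in Nestin-negative (blue) and Nestin-positive (red) cells. Symbols give the replicate number, grey lines join same-numbered arrays, black bars are group means and the grey band spans the array medians, so that Spred1 and Etv5 can be seen to lie far above it and Fgfr3, Spry4 and Etv4 within or near it.

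Fgfr1, an FGF receptor known from many neural precursors, was measured by 3 probe sets. Its brightest probe set (1424050_s_at) had signals of 576, 734, 743 and 733 in Nestin-positive and 437, 717 and 617 in Nestin-negative cells. The groups overlapped, and replicate 1 had the lowest value of each. The log2 change was 0.26 ± 0.18 (SE; limma, adjusted p = 0.580, n = 4 and 3), with a 95% confidence interval from -0.15 to 0.67, and 0.23 ± 0.13 with the block (adjusted p = 0.290). Without Nestin-negative replicate 1 it was 0.06. A probe set of lower signal (1436551_at) gave 166, 141, 184 and 157 against 131, 127 and 134, so that its groups did not overlap, but it did not pass (log2 change 0.31 ± 0.19, limma over probe sets, adjusted p = 0.628). The remaining probe set of Fgfr1 had a log2 change of 0.32, but its groups overlapped. It was dim on Nestin-positive replicate 1 and Nestin-negative replicates 1 and 5. All 3 probe sets were higher in Nestin-positive cells in each of the 3 pairs.

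Fgfr2, whose splice forms differ in the FGFs they bind, was measured by 1 probe set above the filter (1433489_s_at). Its signal was 157, 250.4, 176 and 171 in Nestin-positive and 94.6, 181 and 139.8 in Nestin-negative cells. Nestin-positive replicate 3 was the highest and Nestin-negative replicate 1 the lowest of all arrays. The log2 change of 0.47 ± 0.27 did not pass (limma, adjusted p = 0.481; interval -0.13 to 1.07), and it was 0.22 without Nestin-negative replicate 1 and 0.33 without Nestin-positive replicate 3. Both other Fgfr2 probe sets were dim on all arrays.

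Fgfr3 went the other way. Its probe set (1421841_at) had signals of 66.6, 52.6, 88.5 and 87.8 in Nestin-positive and 88.6, 117 and 113 in Nestin-negative cells. The groups did not overlap, though by a margin of less than 1 signal unit, and 3 of the 7 values were dim (Nestin-positive replicates 1 and 3, Nestin-negative replicate 1). The log2 change of -0.54 ± 0.29 did not pass (limma, adjusted p = 0.457; interval -1.20 to 0.12). Within pairs the differences were close to each other, at -0.41, -0.40 and -0.36 for replicates 1, 4 and 5. With dim signals raised to the array median, the change was -0.28. The second Fgfr3 probe set was dim on all arrays.

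Signals of Fgfr3 followed those of other cell types across the 7 arrays. Its Pearson correlation was 0.92 with the mean log2 level of 8 pericyte and smooth muscle markers and 0.94 with that of 6 meningeal fibroblast markers. It was also 0.89 with oligodendrocyte lineage markers, 0.89 with microglia and macrophage markers and 0.81 with markers of granule neuron differentiation. These are descriptions over 7 arrays that share the group difference and the scaling of each array. The oligodendrocyte list has Cspg4 in common with the pericyte list and Pdgfra with the meningeal list. The pericyte list lay, relative to the mean of all arrays, at -1.75, -1.54, -0.03 and 0.03 in Nestin-positive and -0.39, 1.63 and 2.05 in Nestin-negative cells, and its summed signal ranged from 614 to 2053 and from 1357 to 9542. Of the 8 pericyte markers, 5 were dim on Nestin-positive replicate 1 and on replicate 3. The astrocyte and Bergmann glia list, whose cells are a known site of Fgfr3, had a correlation of 0.15 with it. The same list correlated at 0.67 with Fgfr2, also known from glia, and at 0.72 with Fgfr1. The part of these cell types in the values of the receptors was not tested.

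Among the inhibitors, Spred1, a membrane-bound suppressor of RAF activation, differed most clearly. Its brightest probe set (1423160_at) gave 1827, 2677, 2082 and 1925 in Nestin-positive and 1365, 1407 and 1394 in Nestin-negative cells. Every Nestin-positive array was higher than every Nestin-negative one, and the 3 Nestin-negative values lay close together (2128 ± 381 against 1389 ± 21.6, SD, n = 4 and 3). The log2 change of 0.60 ± 0.14, or 1.52-fold, did not pass over all arrays (limma, adjusted p = 0.0935; interval 0.28 to 0.92). With the block Spred1 rose by 0.48 ± 0.10 (1.40-fold, limma, adjusted p = 0.0041). It kept its call without each pair in turn (adjusted p = 0.0067, 0.0063 and 0.0183 without pairs 1, 4 and 5).

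Spred1 had the most probe sets of the 10 genes, 8 in all, of which 6 passed the filter on dim signals. All 6 had positive log2 changes, from 0.17 to 0.60, and 5 of them were higher in Nestin-positive cells in each of the 3 pairs. The exception (1452911_at) was lower in pair 4 and differed by 0.17 ± 0.23. In the limma fit over probe sets with the block, which called 4.94% of 20162 (1.53% higher and 3.41% lower), the brightest was called (adjusted p = 0.0167) and the next closest missed (1423162_s_at, log2 change 0.54 ± 0.15, adjusted p = 0.0577). The 2 probe sets left out did not exceed a signal of 112.

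**Figure D2:**
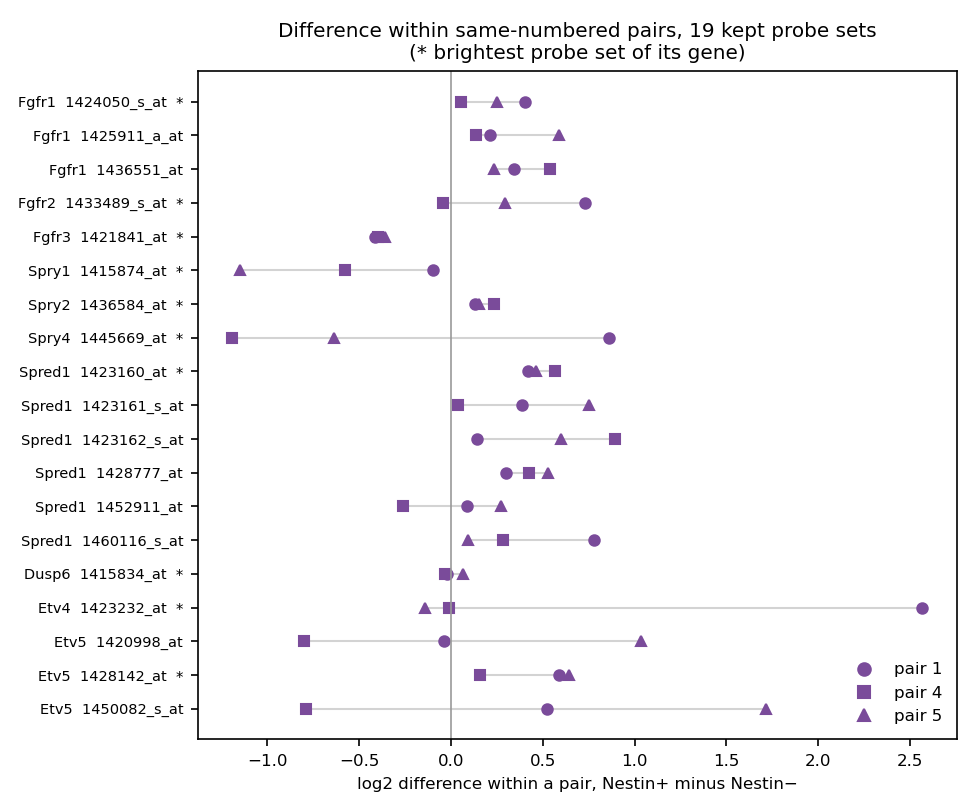
Log2 difference between the Nestin-positive and the Nestin-negative sample of the same replicate number (x axis) for the 19 probe sets that passed the filter, with a symbol per pair and an asterisk at the probe set that stands for its gene. The brightest Spred1 probe set has 3 close values above 0, Spry1 has 3 spread values below 0, and Etv4 has a single value of 2.57 beside 2 near 0.

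Spry1, a Sprouty protein induced by receptor tyrosine kinases, had a single probe set (1415874_at). Its signals were 267, 185, 186 and 137 in Nestin-positive and 286, 277 and 304 in Nestin-negative cells. The groups did not overlap, but Nestin-positive replicate 1 lay near the Nestin-negative values, and the differences within pairs were uneven, at -0.10, -0.58 and -1.15 for replicates 1, 4 and 5. The log2 change was -0.62 ± 0.22 (limma, adjusted p = 0.244; 1.53-fold lower; interval -1.12 to -0.12). With the block Spry1 fell by 0.61 ± 0.19 on the log2 scale (limma, adjusted p = 0.0495). This call sat at the threshold: the adjusted p was 0.0529 with the block fitted on all 7 arrays, just above the threshold of 0.05 without pair 4, 0.509 without pair 5 (log2 change -0.34) and 0.0028 without pair 1 (-0.86).

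Spry2, another Sprouty inhibitor, did not pass. Its probe set above the filter (1436584_at) gave 1157, 1058, 1118 and 1037 against 1058, 949.6 and 932. The Nestin-positive sample was higher in all 3 pairs, but the groups overlapped, and the log2 change of 0.16 ± 0.11 had an interval from -0.10 to 0.41 (limma, adjusted p = 0.588). The second Spry2 probe set (1421656_at) was dim on 6 arrays and was left out.

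Spry4 was near the limit of measurement, with 4 probe sets of which 1 passed the filter (1445669_at). Its signals of 68.9, 131, 68.9 and 76.8 in Nestin-positive and 38.0, 157 and 119 in Nestin-negative cells spread widely within both groups. The log2 change was -0.10 ± 0.48 (limma, adjusted p = 0.951; interval -1.18 to 0.98), and it was 0.30, 0.11 and -0.72 without Nestin-negative replicates 4, 5 and 1, -0.32 with the block and -0.43 with dim signals raised. Its level followed glial markers, with a Pearson correlation of 0.87 with the mean of 15 astrocyte and Bergmann glia markers, a description over 7 arrays. That list lay at -0.97, 0.74, 0.02 and 0.00 in Nestin-positive and -0.85, 0.59 and 0.48 in Nestin-negative cells, and the part of glia in the Spry4 values was not tested.

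Dusp6, the ERK phosphatase, showed no measurable difference. Its signals were 3779.5, 2541, 3513 and 3136 in Nestin-positive and 3836, 3591 and 2996 in Nestin-negative cells. Within the pairs the log2 differences were -0.02, -0.03 and 0.07, and Nestin-positive replicate 3, which has no partner, was the lowest array. The log2 change was -0.11 ± 0.15 (limma, adjusted p = 0.800; interval -0.45 to 0.24), and with the block it was 0.0044 ± 0.10 with an interval from -0.20 to 0.21.

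Etv5, an ETS transcription factor induced by FGF signalling, had 3 probe sets above the filter. Its main probe set (1428142_at) gave 2935, 3957, 2796 and 3185 in Nestin-positive and 1954, 2502 and 2042 in Nestin-negative cells. All Nestin-positive arrays were above all Nestin-negative ones (3218 ± 518 against 2166 ± 294, SD, n = 4 and 3), with replicate 3 the highest. The log2 change of 0.57 ± 0.15, or 1.48-fold, did not pass (limma, adjusted p = 0.116; interval 0.24 to 0.90). With the block Etv5 rose by 0.46 ± 0.11 (1.38-fold, limma, adjusted p = 0.0089), a call lost without pair 5 (0.37, adjusted p = 0.113). The other 2 probe sets of Etv5 did not bear the same order. One of lower signal (1450082_s_at) gave 392, 325, 200.4 and 339 against 273, 346 and 103, with pair differences of 0.53, -0.79 and 1.72. The dimmest (1420998_at) differed by 0.14 ± 0.35.

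Etv4, the closest relative of Etv5 in the set, stood at the array median. Its probe set above the filter (1423232_at) had signals of 78.8, 102, 111 and 87.4 in Nestin-positive and 13.3, 112 and 96.3 in Nestin-negative cells. The low value of Nestin-negative replicate 1 set the estimate of 0.85 ± 0.65 (limma, adjusted p = 0.619; interval -0.61 to 2.31). Without that array the change was -0.14, and with dim signals raised to the array median it was -0.03. The direction of Etv4 thus depended on 1 array. The second Etv4 probe set was dim on all arrays.

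**Figure D3:**
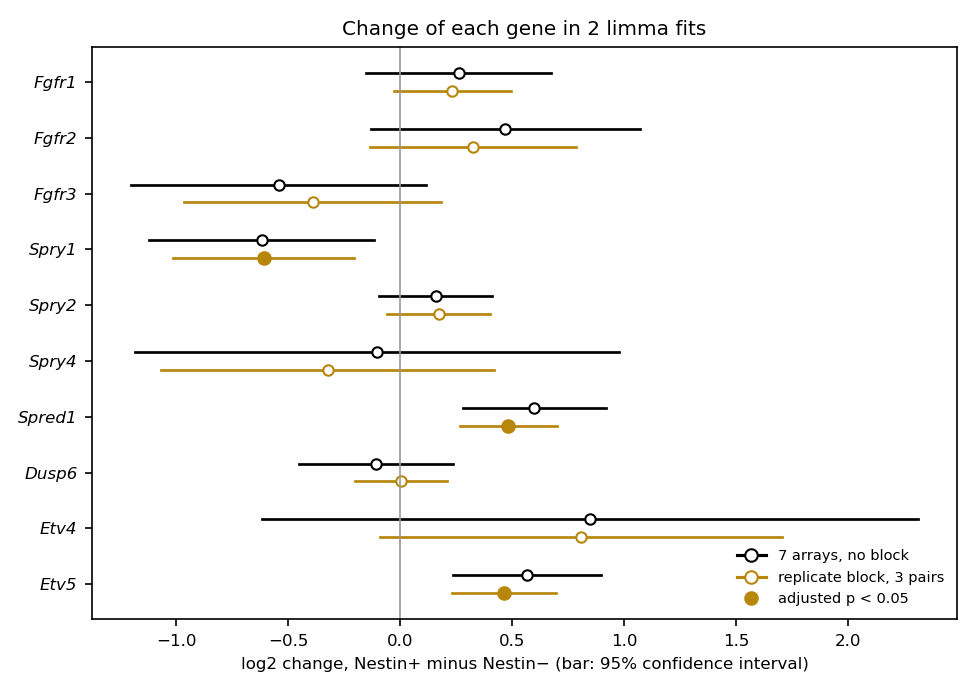
Log2 change between Nestin-positive and Nestin-negative cells (x axis) of the 10 genes, with 95% confidence intervals, in the limma fit of 7 arrays (black) and in the fit of 3 pairs with the replicate number as a block (ochre). Filled symbols passed an adjusted p of 0.05, which applies to Spry1, Spred1 and Etv5 in the blocked fit and to no gene in the other.

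Etv5 and Spred1 followed each other over the arrays. The Pearson correlation of their log2 signals over the 7 arrays was 0.93, and Fgfr2 correlated with Etv5 at 0.87 and Fgfr1 with Fgfr2 at 0.88. Spry1 ran against Etv5 (-0.73) and Spred1 (-0.72). These correlations are descriptions: the arrays share the group difference and their own scaling. Both Etv5 and Spred1 correlated at -0.92 with the mean of 11 markers of granule neuron differentiation, which lay at -0.47, -0.66, -0.17 and -0.25 in Nestin-positive and 0.70, 0.45 and 0.41 in Nestin-negative cells. Of these markers, limma called 4 lower and 0 higher without the block, among them the adhesion molecule gene L1cam, the potassium channel gene Kcnd2 and the microtubule-binding protein gene Mapt. Over all genes that fit called 0.577% lower. With the block, where 3.60% of all genes were called higher and 6.52% lower, 9 of these markers were called lower and 0 higher. Of the 10 precursor markers, 4 were called higher and 0 lower with the block, and their mean correlated at 0.45 with Spred1 and 0.34 with Etv5. The part of precursors and differentiating neurons in the Etv5 and Spred1 values was not tested.

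Lists of markers of further cell types also had negative median log2 changes, though not every list moved as a whole. The 9 measured microglia and macrophage markers had a median log2 change of -2.87, with list levels of -2.17, -2.02, -0.86 and -0.05 against 0.90, 1.42 and 2.78, summed signals from 291 to 1094 and from 2077 to 7925, and all 9 were dim on Nestin-positive replicates 1 and 3. Across the 7 arrays their correlation was 0.89 with Fgfr3, -0.86 with Spry2, -0.82 with Spred1, -0.80 with Etv5 and 0.48 with Spry1. The 8 endothelial and 6 meningeal markers had medians of -0.59 and -1.76, and the 6 oligodendrocyte markers -0.26. The endothelial list levels overlapped, at -1.42, -0.67, 0.76 and 0.29 against -0.77, 0.88 and 0.93. With the block 1 endothelial marker was called lower and 0 higher. All 9 microglia, 7 of the 8 pericyte and 5 of the 6 meningeal markers were called lower with the block, and 0 higher. Over all genes the fit with the block called 3.60% higher and 6.52% lower. The oligodendrocyte markers went both ways, with 2 called higher and 1 lower with the block. Of the 8 interneuron markers 3 were tested, with Gad1 at -4.16, Tfap2b at -2.51 and Pvalb at 0.26. With the block 2 of them were called lower and 1 higher. Gad1 was dim on all 4 Nestin-positive arrays (0.95 on replicate 1) and so passed the filter only through Nestin-negative arrays. The same held for C1qc and Lyz2 of the microglia list. The sizes of these changes are therefore uncertain. The 15 astrocyte and Bergmann glia markers went both ways around a median of -0.08, from Apoe at -1.47 to Gdf10 at 1.09, and with the block 2 were called higher and 6 lower. The part of these cells in the values of the 10 genes was not tested.

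**Figure D4:**
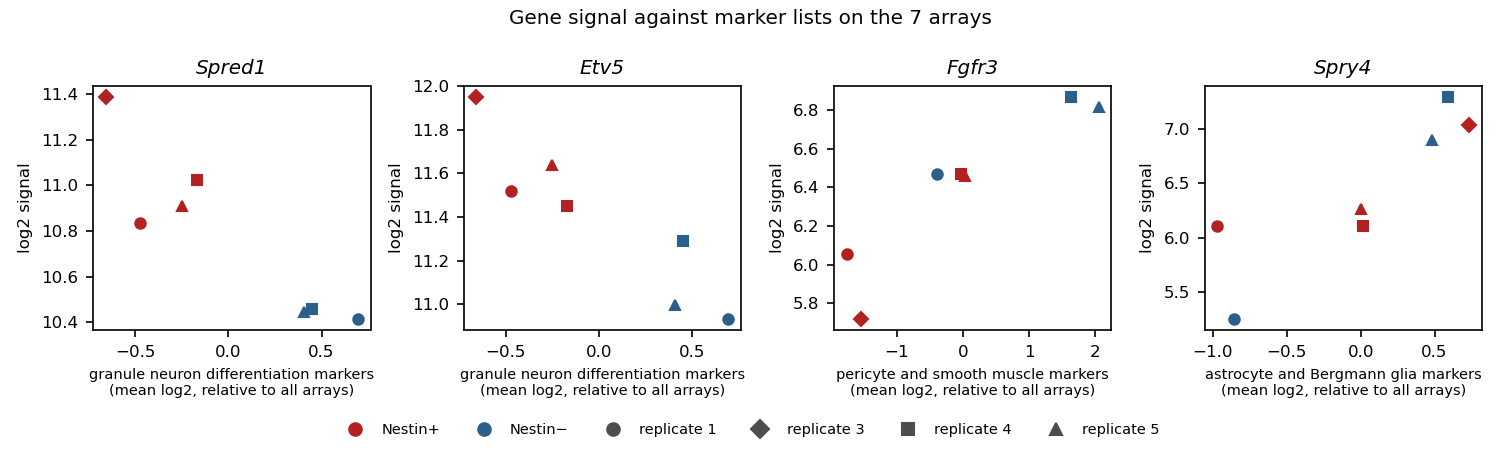
Log2 signal of Spred1, Etv5, Fgfr3 and Spry4 (y axes) against the mean log2 level of a marker list relative to all arrays (x axes), a point per array, red for Nestin-positive and blue for Nestin-negative cells. Spred1 and Etv5 fall as the differentiation markers rise, and Fgfr3 and Spry4 rise with the pericyte and the glial lists.

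Promoter sequence was read for Spred1 and Etv5, which rose together with the block, and for Dusp6, an ERK target that did not pass. The table of RefSeq starts (GRCm38.p6) gave 9 starts for 7 of the 10 genes, and Fgfr1, Spry4 and Etv4 were not searched. The 250 bases before the start are printed 5′ to 3′ on the strand of the gene. Each match to CGGAA, or TTCCG on the other strand, is in capitals. This string, called the core below, is longer than the GGAA of ETS sites. GGAA without the C before it was not searched and is not marked. Etv5 has a pair of starts in the table, of which the upstream one is shown.
Spred1, chr2:117120821-117121070, forward strand: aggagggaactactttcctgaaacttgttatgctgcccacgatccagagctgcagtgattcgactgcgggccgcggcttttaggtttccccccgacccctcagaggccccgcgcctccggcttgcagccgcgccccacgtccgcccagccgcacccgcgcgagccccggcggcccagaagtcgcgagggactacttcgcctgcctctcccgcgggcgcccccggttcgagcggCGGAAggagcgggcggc
Etv5, chr16:22439571-22439820, reverse strand: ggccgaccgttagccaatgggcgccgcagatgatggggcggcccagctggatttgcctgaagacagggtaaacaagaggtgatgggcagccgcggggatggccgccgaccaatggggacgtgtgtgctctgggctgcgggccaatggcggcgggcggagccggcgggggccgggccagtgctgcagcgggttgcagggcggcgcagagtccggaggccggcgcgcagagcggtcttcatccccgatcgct
Dusp6, chr10:99262981-99263230, forward strand: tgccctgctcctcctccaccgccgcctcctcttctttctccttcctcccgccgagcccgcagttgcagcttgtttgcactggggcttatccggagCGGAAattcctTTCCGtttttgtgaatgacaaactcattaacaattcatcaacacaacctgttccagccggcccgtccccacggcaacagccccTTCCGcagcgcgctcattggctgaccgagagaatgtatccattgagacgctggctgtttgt
The core was found in 25.2% of 32851 RefSeq starts over the same length. It occurred 1 time in the Spred1 sequence, with its first base 17 bases before the start, 3 times in Dusp6, at 155, 144 and 61 bases, and 0 times in that of Etv5. Over all 9 starts searched, 2 held CGGAA on either strand, those of Spred1 and Dusp6. The longer ETS motif CCGGAAG, which contains the core and was found in 6.91% of starts, the GLI motif GACCACCCA (0.225%), the cAMP response element TGACGTCA (1.55%) and the AP-1 element TGACTCA (4.46%), each searched on both strands, matched none of the 9 sequences. A match is a run of letters and not a measured site.

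The rest of the pathway was followed through 5 lists. Without the block limma called 0 of their 63 tested genes, with 7 at an unadjusted p under 0.05, and with the block it called 8, 3 higher and 5 lower. These are 11.1% and 12.7% of the 63, beside 14.4% and 10.1% of all genes, shares near those of the background. Of the 8, only Gab1 was called under every form of the block that was run. Of the 22 FGF genes, 7 were tested, with a median log2 change of -0.25 (-0.03 over all genes), which was -0.02 with the mean of the probe sets of each gene, -0.39 with the filter on all 7 arrays and -0.12 with the block without pair 5. Fgf8, a secreted FGF of brain patterning, gave 103, 105, 186 and 133 against 165, 262 and 265, and Fgf13, a homologous factor that stays inside the cell and acts on sodium channels, gave 1626, 1601, 2236 and 2161 against 2656, 2827 and 2649.7. Both fell with the block, Fgf8 by 0.72 ± 0.20 (limma, adjusted p = 0.0222; not called without pair 5) and Fgf13 by 0.45 ± 0.11 (limma, adjusted p = 0.0100; not called without pair 1). Without the block Fgf11, Fgf12 and Fgf14, relatives of Fgf13, differed by -0.32 ± 0.25, -0.25 ± 0.20 and 0.10 ± 0.81, and Fgf14 was dim on 4 arrays. The remaining tested genes, Fgf4 and Fgf9, differed by 0.02 ± 0.28 and 0.09 ± 0.12. The list median therefore mixes secreted FGFs with relatives of Fgf13.

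Among 13 tested receptors and surface partners (median -0.05), Flrt2, a transmembrane protein that binds FGF receptors and axon guidance receptors, was 1357, 1535, 1287 and 1260.2 in Nestin-positive and 890.5, 1041 and 1009 in Nestin-negative cells. It rose by 0.41 ± 0.11 with the block (limma, adjusted p = 0.0222; 0.47 ± 0.12 and 0.115 without it), a call lost without pair 1. The heparan sulphate proteoglycan genes Gpc1 and Sdc3 differed by -0.41 ± 0.20 and -0.21 ± 0.16, and Fgfr4, the remaining FGF receptor kinase, by 0.08 ± 0.16.

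Of the 14 tested genes of RAS and ERK transduction (median -0.03, and 0.01 with the mean of probe sets), Gab1, a docking protein that carries signals from receptor kinases to RAS and PI3 kinase, differed most. Its signals were 1814, 1449, 1841 and 1780.3 in Nestin-positive and 3850.2, 2720 and 2653 in Nestin-negative cells. All Nestin-negative arrays were higher. The log2 change of -0.82 ± 0.16 missed the threshold narrowly (limma, adjusted p = 0.0505), and with the block Gab1 fell by 0.74 ± 0.11 (limma, adjusted p = 0.00017). The next by p-value were Nras (0.20 ± 0.14) and the adaptor gene Frs3 (-0.29 ± 0.21).

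The 14 other feedback inhibitors had a median of -0.09. Dusp4, a nuclear ERK phosphatase, differed by -0.45 ± 0.20 (limma, adjusted p = 0.347), Errfi1, an inhibitor of the EGF receptor, by -0.30 ± 0.14, and Spred3 by -0.48 ± 0.25, and 1 gene of the list, Lrig1, which restrains receptor tyrosine kinases, fell with the block (by 0.49 ± 0.14; limma, adjusted p = 0.0345). Without the block Lrig1 differed by -0.27 ± 0.27 (adjusted p = 0.710), and it was not called with the block as a random effect, with dim signals raised, or without pair 4 or 5. Among 15 other ETS factors and ERK targets (median -0.09, and -0.25 with the mean of probe sets), Ier3, an immediate early gene, gave 218, 186, 314 and 226 against 563, 416 and 317 and fell by 0.75 ± 0.18 with the block (limma, adjusted p = 0.0074; not called without pair 1), while Myc rose by 0.42 ± 0.11 and the cyclin gene Ccnd1 by 0.34 ± 0.10 (limma, adjusted p = 0.0195 and 0.0279). Neither Myc nor Ccnd1 was called with the block as a random effect or without pair 4 or 5. The ETS factor gene Gabpa differed by 0.42 ± 0.17 without the block (limma, adjusted p = 0.303).

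**Figure D5:**
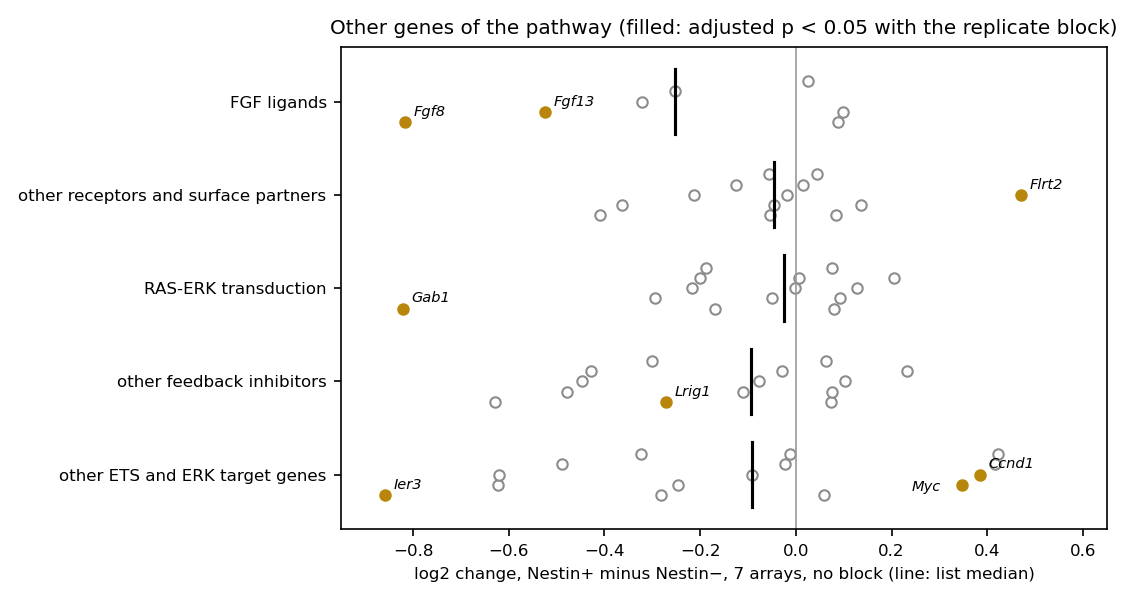
Log2 change without the block (x axis) of the tested genes of the 5 further lists, a point per gene, with the list median as a black line. Filled and named points passed an adjusted p of 0.05 with the replicate block, 3 to the right of 0 (Flrt2, Myc and Ccnd1) and 5 to the left.

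The genes most like each receptor and Etv5 over the 7 arrays were listed by Pearson correlation among all genes tested, as a description. With so many genes and so few arrays, high values follow in part from picking the highest. For Fgfr1 these were Naf1 (1.00 after rounding), Smc2os (1.00) and Mettl15 (0.98). For Fgfr2 they were Dock11 (0.99), Ppp2r3c (0.99) and Gabpa (0.98). For Fgfr3 they were Wipf2 (0.99), Cspg4 (0.99), a proteoglycan of oligodendrocyte precursors and pericytes, and Cacng2 (0.99). Cspg4 is itself in the pericyte and oligodendrocyte marker lists, so its likeness to Fgfr3 is not separate from theirs. For Etv5 they were C630043F03Rik (0.99), Ccbe1 (0.99) and Mier3 (0.98). None of these 12 passed without the block (limma, adjusted p from 0.0734 to 0.705).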

How the data were processed

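Total RNA from sorted cells was labelled with biotin and hybridised to 1-colour arrays, 1 per sample, per the labels' protocols. The deposited intensity values are MAS5 signals, per the submitters' processing notes; the sources used here give no version. After 64 control probe sets were left out, the authors' scaling gave trimmed means (without the lowest and highest 2%) from 496.6 to 498 on all arrays. Neither present calls nor scanner files were used.

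Groups and replicate numbers came from sample titles. Log2 signals were taken without a pseudocount. Of 45101 probe sets, 34945 had 1 gene in the platform annotation, 932 several and 9160 none; 34741 symbols were updated by Entrez ID through RefSeq (GRCm38.p6). Probe sets at or above the array median on at least 3 arrays were kept (23585, of which 20162 had 1 gene), and the brightest stood for its gene (11089 genes). Of the 29 member probe sets 19 were kept, each gene by at least 1, and all of these lay at or above the median on arrays of both groups. The comparison used limma (version 3.58.1, R 4.3.3; eBayes with an intensity trend, two-sided, Benjamini-Hochberg over all features, threshold 0.05). The script was tested on simulated data. Alternatives were the replicate number as a fixed or random block (statmod 1.5.0), quantile normalization, a pseudocount of 16, raised dim signals, other filters, no trend, the mean of probe sets and each array left out.

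Over all genes tested, same-numbered arrays had deviations from their group mean that correlated at 0.71, 0.39 and 0.47 for replicates 1, 4 and 5, and differently numbered pairs at -0.60 to 0.19. Deviations from a group mean cancel within the group, so high values for some pairs lower those of others, and this contrast is partly built in. The numbers were taken to pair the samples from these correlations, not from the labels. The blocked fit used the 3 pairs; its standard errors rest mostly on spread pooled over genes. The members and lists were chosen with earlier results of these data known. Named genes were the members, the 3 members of smallest p of each pathway list plus those called, up to 3 markers of a list and the 3 genes most like each receptor and Etv5. Fgf4, Fgf9, Fgf12, Fgf14, Fgfr4, Myc, Lrig1, Fos, Dusp1, Dusp5, Apoe, Gdf10, C1qc and Lyz2 were named after their values were seen.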

Additional observations from a re-analysis of the deposited data

Results flagged for a closer look

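In the 4 Nestin-positive arrays, 19 probe sets were examined for an array that stands apart, which chance alone finds in about 1 of 20 groups. For Fgfr1 (1424050_s_at), replicate 1 was the lowest, with a signal of 576 against 733 to 743, and its gap to the next array was 0.946 of the range of the group on the log2 scale. For Spry4 (1445669_at), replicate 3 was the highest, with 131 against 68.9 to 76.8, and the gap was 0.830 of the range, just past the critical value for 4 samples. The Nestin-negative group of 3 was not examined in this way.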

How the results depend on the processing

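The main limit is the pairing. Without the replicate block, 0 of the 10 genes were called under every setting run that has no block, with 2 to 4 at an unadjusted p under 0.05. With the replicate block limma called 1122 genes in place of 83, 3 of the 10 members, 8 pathway genes in place of 0, and 996 probe sets in place of 0 (2234 at an unadjusted p under 0.05). As a random effect the block gave 854, 2 (Spred1 and Etv5), 5 and 723. Alternatives added after seeing the data were the block without pairs 1, 4 and 5 in turn (728, 1453 and 909 genes; 3, 2 and 1 members; 8, 10 and 4 pathway genes), the block on all 7 arrays (1106, 2 and 8) and the block with raised dim signals (978, 2 and 7). Quantile normalization gave 22 genes, no filter 52, the mean of probe sets 43, and limma without the trend 0 (1573 unadjusted). With each array left out the count lay between 0 and 97, with 0 when Nestin-positive replicate 5 (1320 unadjusted) or Nestin-negative replicate 4 (1158 unadjusted) was dropped, 10 and 45 when Nestin-positive replicates 1 and 3 were, and 5 and 1 when Nestin-negative replicates 1 and 5 were. One pathway gene, Gab1, passed with a pseudocount of 16, with raised dim signals, and with the strictest filter (1 gene each).

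Directions turned for 3 weakly measured or level genes, and the cause was not tested. Dusp6 was -0.11 in all arrays, 0.0044 with the block (also on all 7 arrays, with raised dim signals, over probe sets and without Nestin-positive replicate 3), and 0.017 and 0.022 with the block without pairs 1 and 4 (range with each array left out -0.21 to 0.0044). Etv4 was -0.033 with raised dim signals, -0.053 with the block as well, -0.074 with the block without pair 1 and -0.14 to 1.40 with each array left out. Spry4 was 0.11 with the block without pair 4 and -0.72 to 0.30 with each array left out. The other 7 genes kept their direction under every alternative run. Etv4, Fgfr3 and Spry4 did not pass the filter on all 7 arrays, so that it gave no value for them.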

Other observations

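Nestin-positive replicate 3, the array without a partner, was low for genes that ERK and other signals induce rapidly, a pattern picked out after the values were seen. Fos, an immediate early transcription factor, had a signal of 3121 on it, against 9927 to 13956 on the other Nestin-positive and 10435.0 to 17299 on the Nestin-negative arrays. Dusp1, a phosphatase of MAP kinases induced by stress and growth factors, was 1823 on it and 3001 to 8360.1 elsewhere, and Dusp5, a nuclear ERK phosphatase, 167 against 370 to 768. This array was the lowest of the 7 for 8 of 15 ETS and ERK target genes and 7 of 14 feedback inhibitors, where it was the lowest for 25.6% of all genes tested. The same array was the highest for 2 of those 15 and 4 of those 14 genes, where it was the highest for 18.5% of all genes. Of the members, it was the lowest for Dusp6 and Fgfr3, but the highest for Fgfr2, Spred1 and Etv5.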
